A study of Rattus norvegicus with 6 samples.

Results

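The urea cycle and the enzymes that make and break glutamine were followed on rat expression arrays through 9 genes: Nags, Cps1, Otc, Slc25a15, Ass1, Asl, Arg1, Glul and Gls2. They were taken by gene symbol from 30367 gene probes covering 19958 genes with an identifier. Each of the 9 genes had 1 probe, printed in 10 spots for Arg1 and in 2 spots for each of the others. Their NCBI gene identifiers in the deposited table are 303563 for Nags, 497840 for Cps1, 25611 for Otc, 306574 for Slc25a15, 25698 for Ass1, 59085 for Asl, 29221 for Arg1, 24957 for Glul and 192268 for Gls2.

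The study set iron deprivation of a cultured liver cell line beside iron deprivation of whole animals, with 6 one-colour arrays, 1 per group, all on 1 slide. FAO cells, a rat hepatoma line, received 100 µM deferoxamine (DFO, an iron chelator) or 0 µM for 24 h. Wistar rats (some of the labels say mice) ate the purified AIN-93G diet with iron or the same diet without iron for 4 weeks, and liver and kidney were taken; age and sex are not given in the sources used here. RNA of 6 animals was mixed for each tissue and diet, and RNA of 3 cultures for each FAO condition, so a group is a single pooled sample of whole tissue or of 1 cell line. No spread between animals or cultures can be had and no test was possible. A difference was counted when it reached 2-fold (1 on the log2 scale), and the ± beside a difference is a standard error from repeated spots of 1 array, pooled over probes of like brightness, which covers spot noise only.

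Ammonia is fixed in liver along 2 routes. Around the portal vein, hepatocytes turn it into urea: Nags makes N-acetylglutamate, which switches on Cps1, the mitochondrial enzyme that joins ammonia and bicarbonate, Otc passes the carbamoyl group to ornithine brought in by the Slc25a15 carrier, and Ass1, Asl and Arg1 complete the cycle in the cytosol. Gls2, the liver type glutaminase, releases ammonia from glutamine in those periportal cells, while Glul, glutamine synthetase, captures what ammonia remains in a thin layer of cells around the central vein. In kidney, Ass1 and Asl make arginine from citrulline that arrives in the blood.

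Levels are given as scaled signal, the background-subtracted spot brightness after each array was brought to a common 75th percentile, and are compared for 1 probe across arrays, never between genes. Where the signals of several marker genes are summed, the brightest genes lead the sum, which is no measure of cell content. A probe was taken as detected on an array only where all its usable spots were marked well above background by the scanner software. From 37.7% to 48.8% of probes were detected per array and no spot was saturated. Repeated spots departed from each other in 122 of 264 blocks of the iron-sufficient liver array, against 2 to 25 blocks on the others. The labels fitted the markers: all 9 hepatocyte markers (such as albumin, Alb) were detected in both livers and both FAO samples and 2 of 9 in kidney, and all 9 kidney markers were detected in both kidneys and 0 or 1 in liver. In pooled tissue RNA, fewer cells of a type and less RNA per cell cannot be told apart.

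Nags and Cps1, the entry to the cycle, were detected in liver and barely or not outside it. The scaled signal of Nags was 1140.5 in iron-sufficient liver and 800.5 in iron-free liver, and it was not detected in kidney (24.8 and 20.3) or in FAO cells (4.73 untreated and 4.95 with DFO). Cps1 had 2605 in iron-sufficient liver, 2071 in iron-free liver, 86.8 in untreated FAO cells and 56.0 with DFO. In kidney Cps1 was not detected on the iron-sufficient array (22.9), and on the iron-free array its 2 spots disagreed, at 309 and 20.3, so that only the first was above background. Otc had 12194 in iron-sufficient and 7311 in iron-free liver, 48.2 in untreated FAO cells and no detected signal with DFO (9.48) or in kidney (22.7 and 19.3). Slc25a15 was not detected on any of the 6 arrays, where its scaled signal lay between 4.21 and 24.9, so its probe gives no difference.

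Ass1 and Asl were detected on all 6 arrays and Arg1 on 4. Ass1 had 51337 in iron-sufficient and 39372 in iron-free liver, 22080 in untreated and 19597 in DFO-treated FAO cells, and 17801 and 13139 in iron-sufficient and iron-free kidney. Neighbours in that order were all within 2-fold of each other, although their spots did not overlap. Asl had 18318 in iron-sufficient liver, where its 2 spots stood at 13908 and 24128, and 18250 in iron-free liver, then 8593 and 6033 in kidney and 4518 and 5448 in FAO cells without and with DFO. The step from liver to kidney was the only one of at least 2-fold in that order. Arg1 had 51886 in iron-sufficient and 46541 in iron-free liver, 276 in untreated and 134 in DFO-treated FAO cells, and was not detected in kidney (97.9 and 79.9). The 10 Arg1 spots of the iron-sufficient liver array ran from 19219 through a median of 64124 to 81880, with 7 of them in noisy blocks, against 44336 to 48159 in iron-free liver, so the spots of both livers overlapped.

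The glutamine enzymes went opposite ways between iron-sufficient liver and iron-sufficient kidney, and both were lower in FAO cells than in liver. Gls2 had 27385 in iron-sufficient and 15434 in iron-free liver, 1846 in DFO-treated and 1198 in untreated FAO cells, and 324 and 263 in iron-free and iron-sufficient kidney. Every step between neighbouring tissues or cells in that order was at least 2-fold, and every step between the conditions of 1 tissue was less. Glul was highest in iron-sufficient kidney, at 5210, and had 3844 in iron-free kidney. In liver it had 1660 with iron and 4023 without, and in FAO cells 253 untreated and 218 with DFO. The spots of iron-free liver (3552 and 4558) overlapped those of iron-free kidney (3755 and 3936), while those of iron-sufficient liver (1183 and 2329) lay below both.

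**Figure D1:**
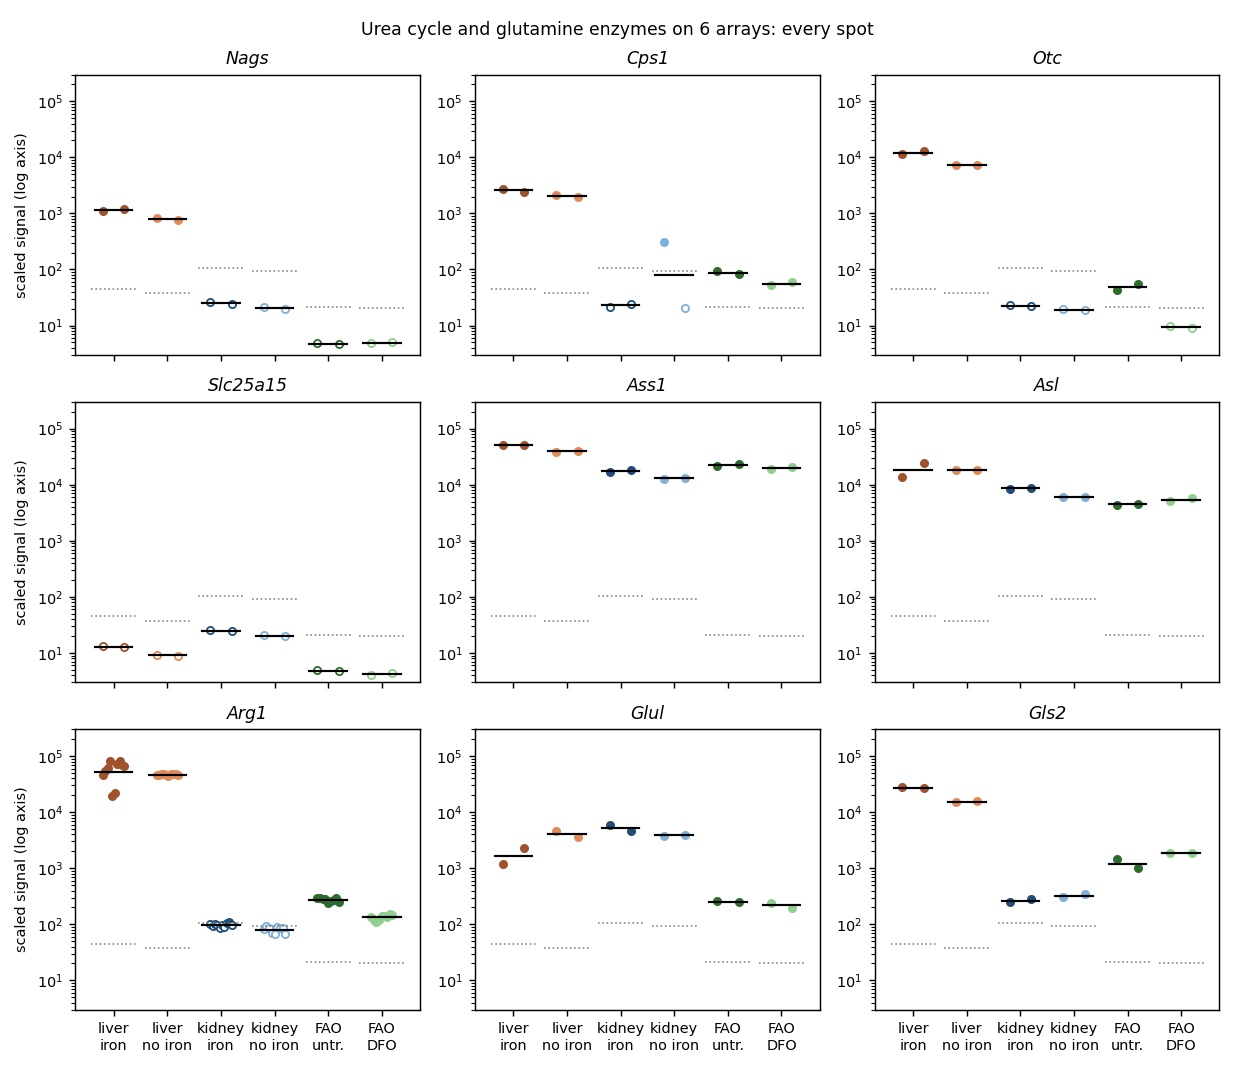
Scaled signal (log axis) of the 9 genes on the 6 arrays. Points are spots, filled where marked well above background and open where not, black bars are the means of log2 signal, and dotted grey lines are the lowest signal of any detected probe on that array; spots marked as outliers are left out. Glul is the gene whose highest bar is in kidney among those detected in liver, and Slc25a15 has only open points.

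Glul and Gls2 each have 2 start sites in the RefSeq promoter table (assembly GRCr8), which held 8 of the 9 genes, Arg1 being absent from it. Their windows, 250 bases before to 50 bases after the start, are shown because these 2 genes moved apart in liver. That of Otc is shown because its signal, low in untreated FAO cells, fell below detection with DFO. Capitals mark CCAAT (a common promoter element) or TCAAAG (the core that TCF/LEF factors of Wnt signalling bind), on either strand. A TATA box, a hypoxia response core and a C/EBP-type site were searched as well, and no match overlapped another.
Glul start 1, chr13:68519250-68519549, plus strand: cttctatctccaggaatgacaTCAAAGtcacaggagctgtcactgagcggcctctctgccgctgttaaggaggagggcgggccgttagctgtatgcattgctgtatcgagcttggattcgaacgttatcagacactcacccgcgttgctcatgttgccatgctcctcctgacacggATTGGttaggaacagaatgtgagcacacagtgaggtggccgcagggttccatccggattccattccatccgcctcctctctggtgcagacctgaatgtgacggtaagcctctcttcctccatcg
Glul start 2, chr13:68575816-68576115, plus strand: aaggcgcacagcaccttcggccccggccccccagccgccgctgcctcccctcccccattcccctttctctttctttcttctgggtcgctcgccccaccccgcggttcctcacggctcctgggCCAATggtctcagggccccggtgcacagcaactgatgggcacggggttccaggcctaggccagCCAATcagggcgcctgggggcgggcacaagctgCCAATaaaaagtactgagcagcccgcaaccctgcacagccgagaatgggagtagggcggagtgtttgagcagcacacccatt
Gls2 start 1, chr7:1201629-1201928, plus strand: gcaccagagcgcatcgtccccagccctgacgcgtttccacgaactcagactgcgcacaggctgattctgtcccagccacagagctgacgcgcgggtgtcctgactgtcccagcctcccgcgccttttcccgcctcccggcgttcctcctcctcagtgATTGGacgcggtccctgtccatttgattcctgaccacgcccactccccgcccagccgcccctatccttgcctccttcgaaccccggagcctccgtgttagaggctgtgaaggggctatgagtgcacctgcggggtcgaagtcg
Gls2 start 2, chr7:1206874-1207173, plus strand: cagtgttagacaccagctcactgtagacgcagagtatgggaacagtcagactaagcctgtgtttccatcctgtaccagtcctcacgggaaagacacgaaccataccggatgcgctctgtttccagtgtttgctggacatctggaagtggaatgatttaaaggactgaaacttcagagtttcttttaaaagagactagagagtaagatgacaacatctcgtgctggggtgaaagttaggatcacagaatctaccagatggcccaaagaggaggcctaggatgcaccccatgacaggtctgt
Otc, chrX:15202424-15202723, minus strand: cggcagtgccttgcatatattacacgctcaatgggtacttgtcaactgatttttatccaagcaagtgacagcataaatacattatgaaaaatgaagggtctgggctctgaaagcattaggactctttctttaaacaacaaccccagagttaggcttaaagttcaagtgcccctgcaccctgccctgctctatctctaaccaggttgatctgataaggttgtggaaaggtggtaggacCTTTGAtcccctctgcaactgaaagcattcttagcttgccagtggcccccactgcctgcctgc

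The second Glul start carried 3 CCAAT matches, their first bases 128, 65 and 32 bases before the start, all on the gene's strand. The first Glul start had 1 CCAAT match on the opposite strand and a TCAAAG match 229 bases before the start. The first Gls2 start had 1 CCAAT match and the second held none of the 5 motifs. Otc had a TCAAAG match on the opposite strand beginning 13 bases before the start, and Cps1 had one beginning 67 bases before. Among the 33469 promoters of the table, 37.5% held CCAAT and 16.1% held TCAAAG, so single matches are common. Outside these, Ass1 held 1 match to TATAAA, the TATA box (14.2% of promoters). Asl held 2 matches to ACGTG, the core of hypoxia response elements (19.3%), and Slc25a15 held 1 CCAAT match. The C/EBP-type site TTGCNNAA (10.6%) was in none of the windows of these 8 genes. The Cps1 and Otc windows had 2 CG dinucleotides each, against 25 at the first Gls2 start, 22 for Asl and a median of 7 over all promoters. A match is a string of letters in a window and says nothing of binding here.

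Iron-sufficient liver and kidney differed by at least 2-fold in all 8 genes detected in either, 7 higher in liver and 1 lower. Of all 9337 genes measured in this comparison, 41.5% differed by 2-fold, 14.9% higher in liver and 26.6% lower (1387 and 2484 genes, or 1882 and 2001 with each array scaled to all of its probes). Where kidney gave no detected signal, the difference is a lower bound against the faintest detected kidney signal: Nags was at least 10.9-fold higher in liver, Cps1 at least 24.8-fold, Otc at least 116-fold and Arg1 at least 494-fold. Gls2 was 104-fold higher (log2 6.70 ± 0.37) and Ass1 2.88-fold higher (1.53 ± 0.29). Asl was 2.13-fold higher in liver (1.09 ± 0.29), but its spot pairs gave differences from 0.67 to 1.51, and the difference was under 2-fold with another background correction or quantile normalization. Glul alone went the other way, 3.14-fold lower in liver (-1.65 ± 0.34), with spot pairs from -2.33 to -0.97.

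Arg2, the mitochondrial arginase that stands in for Arg1 outside liver, was at least 21.2-fold lower in liver than in kidney. Slc25a2, the second ornithine carrier, was not detected on any array. Slc38a3, a glutamine transporter, was 6.83-fold higher in liver, and Oat, which breaks down ornithine, 2.32-fold lower, though under 2-fold in 2 of 9 other settings. Over all genes, 14.9% were 2-fold higher in liver and 26.6% lower. Of 14 measured genes of ammonia and glutamine handling, 3 were higher in liver and 5 lower. They included mitochondrial carbonic anhydrases in opposite directions, Car5a at least 27.7-fold higher in liver and Car5b at least 27.9-fold higher in kidney, and the ammonia channel Rhcg at least 57.7-fold higher in kidney. Of 15 measured genes of arginine, ornithine and proline metabolism, 4 were higher and 8 lower in liver, led by Gatm, the first enzyme of creatine synthesis, at least 230-fold higher in kidney. Another Gatm probe, also not detected in liver, stood at -4.92 on the log2 scale. At their smallest among the other settings the bounds of the named genes were, on the log2 scale, -2.77 for Arg2, 4.42 for Car5a, -2.87 for Car5b, -4.05 for Rhcg and -6.25 for Gatm.

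All 8 genes were lower in untreated FAO cells than in iron-sufficient liver, where 27.8% of 10595 genes were 2-fold lower and 27.7% higher (55.5% in either direction). Otc was 253-fold lower in the hepatoma cells (-7.98 ± 0.87), Arg1 188-fold (-7.56 ± 0.13), Cps1 30.0-fold (-4.91 ± 0.46), Gls2 22.9-fold (-4.51 ± 0.27) and Nags at least 53.5-fold. For Arg1 the spot pairs ran from -8.42 to -6.00 and its own spots gave a standard error of 0.24. Without spots in noisy blocks Arg1 came to -7.98. Glul was 6.57-fold lower (-2.72 ± 0.30). Asl, at 4.05-fold (-2.02 ± 0.27), and Ass1, at 2.33-fold (-1.22 ± 0.27), differed least, and quantile normalization took Ass1 to -0.80. For Otc and Ass1, the enzymes that make and use citrulline, the difference between their differences was -6.77 ± 0.91 (Otc minus Ass1). The 9 hepatocyte markers were also at least 2-fold lower in FAO cells (7 of 9 with normexp or quantile normalization), with a median of -4.48, beside -4.71 for the 8 genes. All 6 markers of dividing cells were higher in FAO cells (median 6.41; summed scaled signal 767 in liver and 63658 in FAO). Of 6 measured erythroid markers 5 were lower (329607 in liver and 705 in FAO), as were 8 of 8 leukocyte and macrophage markers (29838 and 152). The part of these was not tested.

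Other nitrogen genes went both ways between FAO cells and liver, as did the genes of the whole array (27.7% were 2-fold higher and 27.8% lower). Of 12 measured genes of ammonia and glutamine handling 3 were higher in FAO cells and 4 lower. The higher ones were Slc1a2 (at least 9.10-fold; a bound of 3.19, and 1.39 at its smallest among other settings), asparagine synthetase Asns (2.86, and 1.88 at its smallest) and the glutamine carrier Slc1a5 (1.40, and 0.72 with normexp), and Car5a was at least 121-fold lower (-6.92, and -5.98 at its smallest). Of 15 arginine and ornithine genes 5 were higher and 6 lower (3 and 6 of 14 with normexp). Among them the arginine transporter Slc7a1 was at least 31.3-fold higher (4.97, and 3.31 at its smallest) and Prodh, the first enzyme of proline breakdown, at least 247-fold lower (-7.95, and -5.59 at its smallest). The Slc7a1 bound is that of its brightest probe. Another Slc7a1 probe, at 26.0 in untreated FAO cells, was not detected in liver. It lay below the faintest detected liver signal (45.0) and gives no difference. Of 14 amino acid catabolism genes, 12 were lower and 0 higher, among them Tdo2 (tryptophan dioxygenase) and Ftcd, an enzyme of histidine breakdown.

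**Figure D2:**
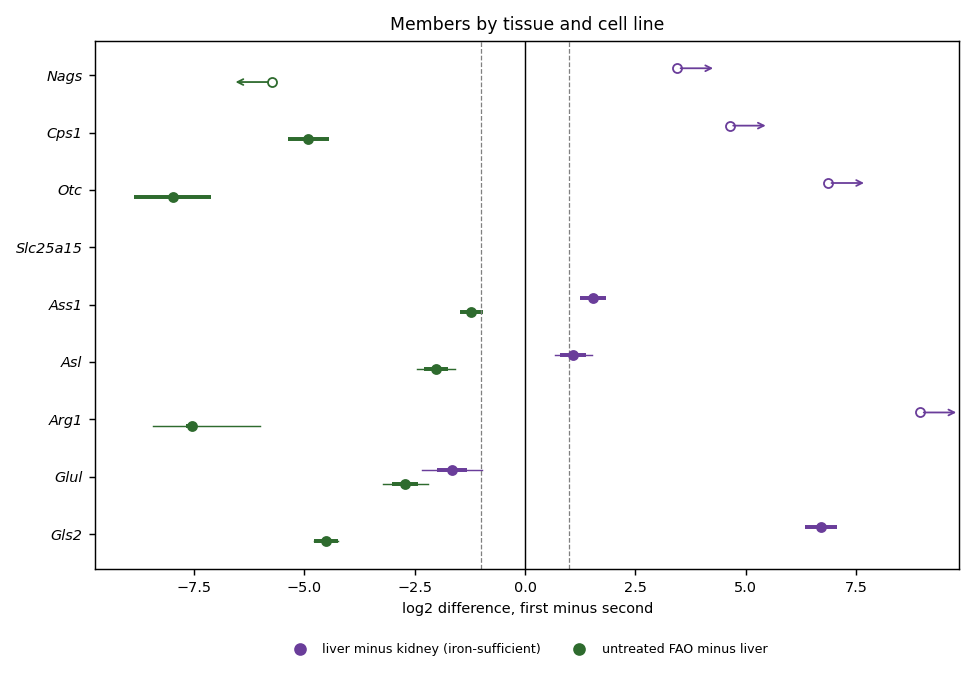
Log2 difference of each gene between iron-sufficient liver and kidney (purple) and between untreated FAO cells and iron-sufficient liver (green). Filled points are measured differences with the pooled spot standard error (thick) and the range over spot pairs (thin), open points with arrows are bounds, and dashed lines mark 2-fold; Slc25a15 has no value. Every green point is below 0, and Glul has the only purple point below 0.

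On the iron-free diet, liver Glul was 2.42-fold higher and no urea cycle gene moved by 2-fold. This was 1 higher and 0 lower of 8 measured genes, where 9.52% of all 10171 genes measured in liver moved by 2-fold, 6.51% up and 3.01% down. The Glul difference was 1.28 ± 0.27, and 96.0% of genes had a lower one. Its own spots give a standard error of 0.52, and the spot pairs ran from 0.61 to 1.95, so the closest pair fell short of 2-fold. Over 9 other processing settings the difference stayed between 1.12 and 1.31. With 1 probe and no outlier or noisy-block spot in either liver, Glul could be moved by several of these settings only through the scaling, or not at all.

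The other 7 genes lay at or below 0. Gls2 was lowest at -0.83 ± 0.27 (1.77-fold lower; 4.83% of genes were lower still), and a different background correction took it to -1.20, past 2-fold. Otc stood at -0.74 ± 0.27, Nags at -0.51 ± 0.26, Ass1 at -0.38 ± 0.27 and Cps1 at -0.33 ± 0.27. Arg1 stood at -0.16 ± 0.12, with spot pairs from -0.89 to 1.33, and at -0.57 without spots in noisy blocks. Asl was at -0.01 ± 0.27, and its sign turned with the background correction (0.61). The median over the 8 genes was -0.36, against 0.02 over all genes. None of the urea cycle differences reached 2-fold, and with 1 array per diet whether they exceed the spread between animals was not tested.

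Because Glul and Gls2 sit on the same arrays, the difference between their differences is free of the scaling. Glul gained 2.10 ± 0.38 on Gls2 in iron-free liver, a 4.30-fold shift in their ratio, and 1.61 ± 0.38 on Cps1. These errors are pooled over probes, and the own spots of Glul alone give a larger one, 0.52. The Glul spot pairs ran from 0.61 to 1.95. In kidney the same contrast of Glul with Gls2 was -0.74 ± 0.42, and in FAO cells -0.84 ± 0.56.

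Some genes of the pericentral list, where Glul is also expressed, were higher in the same liver. Of 11 measured pericentral genes other than Glul, 6 were at least 2-fold higher and 0 lower, with a median of 1.81. Over all genes measured in liver, 6.51% were 2-fold higher and 3.01% lower, with a median of 0.02. The glutamate transporter Slc1a2 was at least 10.9-fold higher, Cyp7a1, which catalyses the first step from cholesterol to bile acids, at least 6.49-fold, the drug-metabolising Cyp1a2 6.32-fold and Rhbg 4.65-fold. These sizes depended on the processing: on the log2 scale Slc1a2 went from 3.44 to 1.75 at its smallest among the other settings, Cyp7a1 from 2.70 to 1.84 and Rhbg from 2.22 to 1.19, and Cyp1a2 from 2.66 to 3.25 at its largest, all still past 2-fold. Oat was 3.50-fold higher (1.81 ± 0.27). Cyp2e1, also pericentral, stood at -0.73. Of 10 measured periportal genes outside the 9, 0 were higher and 3 lower, with a median of -0.82. Those were Hal (-1.34) and Uroc1 (at least 2.27-fold lower), the first 2 enzymes of histidine breakdown, and Ftcd (-1.30), the last. Uroc1 fell short of 2-fold with the normexp background correction (-0.78). All 10 lay below 0, and 8 of 10 did under quantile normalization, the fewest among settings with all 10 measured. The lists were drawn up with earlier results of these data known and share genes, so their counts are a description.

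**Figure D3:**
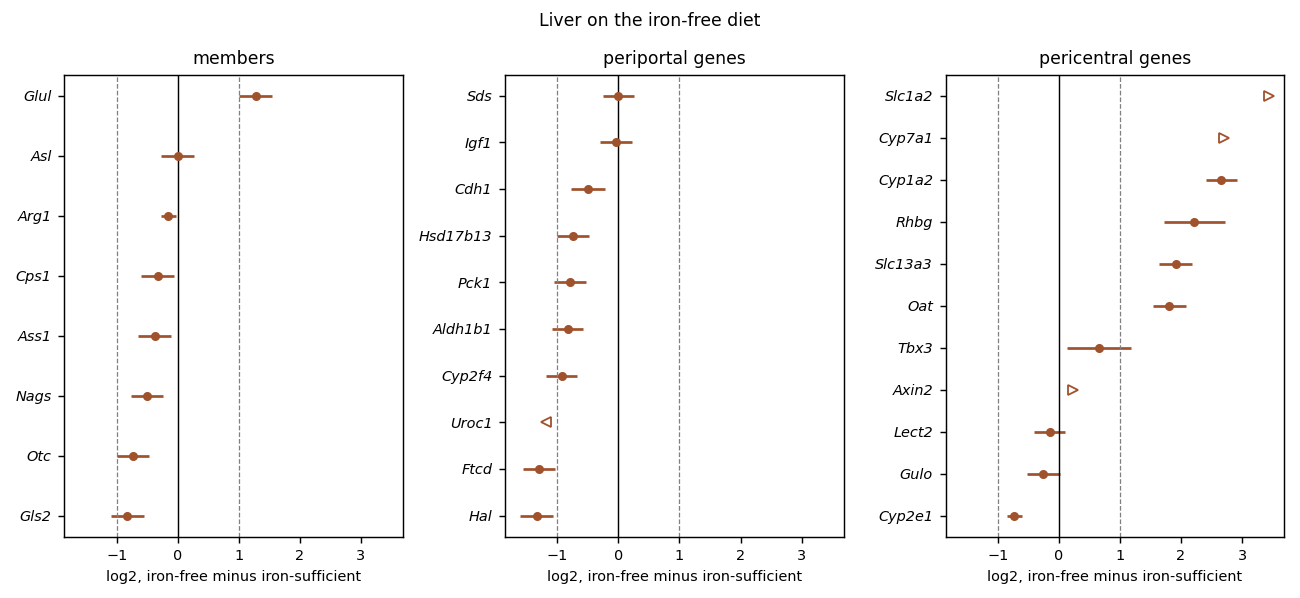
Log2 difference between iron-free and iron-sufficient liver for the measured members of 3 lists. Over all genes, 6.51% were 2-fold higher and 3.01% lower. Circles are measured differences with the pooled spot standard error, open triangles are bounds, and dashed lines mark 2-fold; Glul is the only one of the first list past a dashed line, against 6 of 11 pericentral genes to the right and 3 of 10 periportal genes to the left.

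Among other genes of nitrogen handling in liver, 3 of 14 measured for ammonia and glutamine were higher and 1 lower. Over all genes, 6.51% were 2-fold higher and 3.01% lower. Beside Slc1a2 and Rhbg, the glutamine carrier Slc38a5 was at least 2.30-fold higher, a bound that came to 0.41 on the log2 scale with the normexp background correction, and Car5a, which supplies bicarbonate to Cps1, was 2.55-fold lower (-1.35 ± 0.28). Oat was the only 1 of 15 arginine and ornithine genes past 2-fold. In amino acid catabolism 1 of 14 was higher, Gldc of the glycine cleavage system at 1.01, which fell under 2-fold in 6 of 9 other settings, and 4 were lower, with the asparaginase Aspg (-1.40) beside Hal, Ftcd and Uroc1. Of 8 measured transcription factors known to act on urea cycle genes, 0 were higher and 2 lower, Hnf4a (-1.09 ± 0.58) and Nr1h4 (-1.22), each under 2-fold in 2 of the other settings, and the median was -0.54. The Nr1h4 value is that of its brightest probe, and another probe of the gene, detected in both livers, stood at -0.44. Slc38a3 stood at -0.32 ± 0.12, and Arg2 was not detected in iron-sufficient liver.

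Markers of other cells moved in the same liver comparison, where 6.51% of all genes were 2-fold higher and 3.01% lower. Of 8 measured erythroid markers 6 were higher (summed scaled signal 329607 with iron and 436176 without), of 9 leukocyte and macrophage markers 4 (29838 and 39354) and of 6 markers of dividing cells 5 (767 and 6062), with 0 lower in each. Most of the erythroid sum was Hba1, which hardly moved (285193 and 288019), so the sum understates the markers that rose. Of 9 hepatocyte markers 2 were higher and 0 lower (1279273 and 1496550). Epb42 was the erythroid marker not detected in either liver. The part of these in the values of Glul and the urea cycle genes was not tested.

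In kidney, none of the 4 genes detected there moved by 2-fold on the iron-free diet, where 4.37% of 8952 genes did (3.11% up and 1.26% down). Asl stood at -0.51 ± 0.18, Glul at -0.44 ± 0.25, Ass1 at -0.44 ± 0.20 and Gls2 at 0.30 ± 0.34. For Asl, 6.51% of genes had a lower difference, and for Ass1 9.06%. Both enzymes of renal arginine synthesis and Glul thus lay on the same side, each between 1.35-fold and 1.42-fold lower, and their spots did not overlap between the diets. The median of the 4 was -0.44, against -0.03 over all genes. Counting Cps1 as detected by its 1 bright spot would put it past 2-fold higher in iron-free kidney (a bound of 1.06), a value that rests on that spot.

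Nearly all other nitrogen genes of kidney were within 2-fold, in a comparison where 4.37% of all genes were not. Arg2 had 956 with iron and 1287 without (0.43 ± 0.26), Oat 28396 and 28643 (0.01 ± 0.20), and Slc38a3 stood at -0.25 ± 0.24. Of the 12 measured genes of ammonia and glutamine handling and the 9 of amino acid catabolism, 0 moved by 2-fold. Azin2, a regulator of polyamine synthesis, was at least 5.62-fold higher (a bound of 2.49, and 1.73 to 3.70 in other settings), the only 1 of 15 arginine and ornithine genes past 2-fold. That is its brightest probe, and another Azin2 probe was not detected in either kidney (28.8 with iron and 23.4 without). Of 7 measured erythroid markers 2 were higher in iron-free kidney (summed scaled signal 235867 with iron and 246418 without), and of the kidney markers 0 of 9; the part of these was not tested.

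In FAO cells given DFO, Otc and Arg1 were at least 2-fold lower and none of the 9 genes was 2-fold higher. This was 2 of 7 measured genes, where 10.5% of 10696 genes moved by 2-fold, 6.44% down and 4.05% up. Otc went from 48.2 (spots 42.9 and 54.2) to below detection at 9.48 (8.99 and 9.99), at least 2.39-fold lower (a bound of -1.26). The untreated Otc signal lay near the faintest detected signal of its array (21.3) and had a pooled spot error of 0.83 on the log2 scale. Arg1 went from 276 to 134, 2.06-fold lower (-1.05 ± 0.21), and its 9 usable spots did not overlap, at 239 to 300 untreated and 111 to 151 with DFO. Both are close to the threshold: Arg1 came to -0.86 at its smallest and Otc to -0.69 among 9 other settings, and the normexp background correction and quantile normalization each took both under 2-fold. Against Ass1 on the same arrays, Arg1 stood at -0.87 ± 0.26.

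The remaining enzymes were within 2-fold in FAO cells. Gls2 was at 0.62 ± 0.20 (1.54-fold higher, spot pairs 0.36 to 0.89; 90.5% of genes were lower), the opposite side from iron-free liver. Cps1 stood at -0.63 with a spot error of 0.89, Asl at 0.27 ± 0.17, Glul at -0.21 ± 0.52 and Ass1 at -0.17 ± 0.15. The median over the 7 genes was -0.21, against 0.03 over all genes. Differences between comparisons were not tested, and doses of iron deprivation by diet and by chelator cannot be set on 1 scale.

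**Figure D4:**
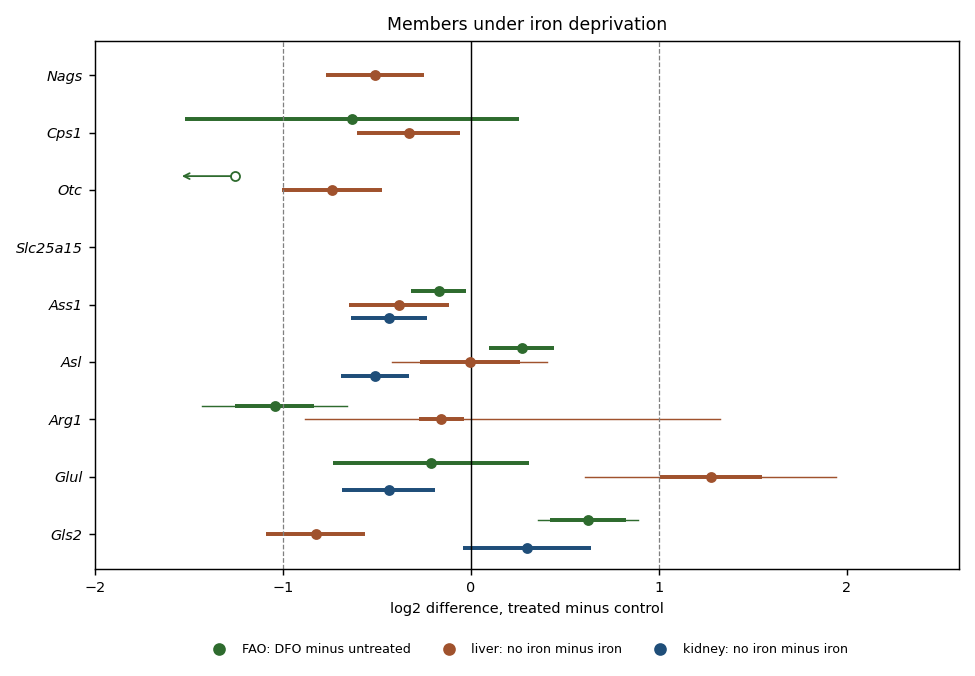
Log2 difference between treated and control for each gene in FAO cells (green), liver (brown) and kidney (blue). Thick bars are the pooled spot standard error, thin bars the range over spot pairs, the open point with an arrow a bound, and dashed lines mark 2-fold; a missing point means no detected signal to compare. Glul in liver is to the right of the upper dashed line, and Otc and Arg1 in FAO cells are to the left of the lower one.

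Markers of hepatocytes moved in the same comparison, where 4.05% of all genes were 2-fold higher and 6.44% lower. Of 9 measured, Ttr (-1.67), Apob (-1.24) and Cyp2e1 (-1.80) were 2-fold lower with DFO and Fgb (1.11) higher, and their summed scaled signal was 134033 untreated and 197724 with DFO. Only Cyp2e1 of these 4 stayed past 2-fold in every other setting. The rise of the sum came mainly from Tf, at 52142 untreated and 103559 with DFO, itself just under 2-fold (0.99). Of 6 markers of dividing cells 0 moved by 2-fold. The part of these in the values of Otc and Arg1 was not tested.

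Around them in FAO cells, 1 of 11 genes of ammonia and glutamine handling was lower, Rhbg, with a bound of -2.61 that came to -0.70 without spots in noisy blocks. Over all genes, 4.05% were 2-fold higher with DFO and 6.44% lower. Of 16 arginine and ornithine genes 2 were lower, both as bounds, Pycr1 of proline synthesis at least 2.74-fold and Gatm at least 2.01-fold. Both were under 2-fold elsewhere, Pycr1 in 2 of 9 other settings (-0.73 at its smallest) and Gatm in 5 of 9 (-0.46). Of 9 amino acid catabolism genes Gldc was at least 10.4-fold higher (a bound of 3.38, and 2.48 at its smallest) and Cth, which makes cysteine, 2.78-fold lower (-1.48 ± 0.25). Of 8 transcription factors, Cebpb was 2.90-fold higher (1.54 ± 0.16) and 0.84 on the log2 scale without spots in noisy blocks, and Klf15, a regulator of amino acid breakdown, 2.73-fold lower (-1.45 ± 0.13). Of 8 periportal genes Cyp2f4 was 4.46-fold lower and Igf1 at least 8.37-fold higher (a bound of 3.06, and 2.08 at its smallest). Of 7 pericentral genes Cyp2e1 and Rhbg were lower, and 1 without spots in noisy blocks. Slc38a3 stood at -0.37 ± 0.11 and Oat at 0.30 ± 0.15, while Arg2 and Slc25a2 were not detected in the line.

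The genes whose profile over the 6 arrays lay closest to 4 of the enzymes were also listed. Likeness is the root mean square distance between log2 profiles centred on their mean, over 6 arrays that share a slide and the tissue contrast. Ass1 was followed most closely by Serp1 and Sec24d (0.11 each, among 6470 genes), and Glul by Vwf (0.25) and Cldn2 (0.28). The nearest to Gls2 were C8g (0.36) and Etnk2 (0.54), and to Cps1 Gc (0.53) and Tsku (0.57, among 7422 genes), with Cps1 undetected in kidney. The Cps1 distances include those kidney signals, of which the iron-free one (79.2) averages disagreeing spots of 309 and 20.3.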

How the data were processed

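The samples were 6 pooled rat RNA samples on 6 one-colour Agilent arrays, 1 per group, and groups were taken from the sample titles. Per the file headers, the authors ran Agilent Feature Extraction 10.7.3.1 on array design 028279 (build rn4), and the deposited processed intensity of each spot has its background subtracted. The authors' deposited table of the series gives every probe's intensity and log2 value. This intensity equalled the geometric mean of a probe's spots for 97.1% to 98.3% of probes (relative tolerance 0.001), and its log2 value was log2 intensity less 1 shift per array, 7.92 to 9.94, so scale and direction are known and genes were not centred. Medians of its log2 columns, control then treated, were -3.43 and -3.29 (liver), -3.31 and -3.26 (kidney), -4.13 and -4.17 (FAO).

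Log2 intensities of spots not marked as outliers (680 to 1215 of 58717 gene spots were left out per array) were averaged per probe, and each array was brought to 1 common 75th percentile over the 9091 probes (29.9%) that every array detected. The deposited gene identifiers named 24272 probes; 6095 had none and stayed out of gene counts. Of 19958 genes 19142 matched the RefSeq table (GRCr8). A gene with several probes is represented by the brightest. Where 1 array did not detect a probe, the bright signal was set against the faintest detected signal of the other array, or against the probe's own signal there if higher, which gives a bound. Counts took differences or bounds of at least 2-fold. Signal over background and the number of arrays limit the precision.

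The genes and lists were chosen with earlier results of these data known. Named were all 9 genes, up to 4 counted genes per list and comparison by size, Arg2, Slc25a2, Slc38a3 and Oat in every case, and the 2 nearest profiles to Cps1, Ass1, Glul and Gls2. Cyp2e1 and Hba1 in liver, Tf in FAO cells, Alb and Epb42 were named outside this rule, after their values were seen. A listed gene that is not reported here by name stays in the counts. Alternatives were normexp background correction (offset 50, on median spot and background signals, since mean spot signals were not in the files used here), 3 scalings, the mean over probes, spots of noisy blocks (16 by 16 spots) left out, outlier spots kept, detection by any spot, the authors' deposited values and a 1.5-fold rule. Steps were tested on simulated data for the 3 treatment comparisons, with known changes on probes well above the faintest detected signal. Bounds and changes near that signal were not simulated. Tools were Python 3.11.15, numpy 2.4.6, pandas 2.3.3, R 4.3.3 and limma 3.58.1.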

Additional observations from a re-analysis of the deposited data

Results flagged for a closer look

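Glul went opposite ways in the tissues on the iron-free diet: its difference was 1.28 on the log2 scale in liver and -0.44 in kidney, with both spots of each array on the same side. Gls2 lay on opposite sides too, in the reverse direction, at -0.83 ± 0.27 in liver and 0.30 ± 0.34 in kidney, where neither value reached 2-fold. The kidney value is smaller than its spot error and came to 0.08 with normexp. With 1 pooled sample per tissue and diet, the difference between the tissues was not tested for either gene.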

How the results depend on the processing

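Over the settings tried, the number of the 9 genes past 2-fold in FAO cells went from 2 to 0 with normexp and with quantile normalization and to 4 with a 1.5-fold rule. In liver it went from 1 to 2 with normexp and to 3 with the 1.5-fold rule, and in kidney from 0 to 1 when any spot counted for detection. The median for liver minus kidney moved from 4.04 to 3.43 with normexp, 4.43 with quantile normalization, 4.64 without spots in noisy blocks and 5.48 with detection by any spot. In the main setting this median lay midway between the Nags and Cps1 bounds. Without spots in noisy blocks Asl dropped out, and the median over the remaining 7 genes was the Cps1 bound. The bounds move with the faintest detected signal by their construction. For the others the cause was not tested. No 2-fold difference of the 9 genes changed sign. Scaling to all probes raised the median of all genes by 0.31 in liver minus kidney, with 1882 genes higher and 2001 lower in place of 1387 and 2484; the median of detected probes moved it by 0.18 (1640 and 2184) and quantile normalization by 0.17 (1744 and 2158). In FAO minus liver, normexp moved it by -0.22 (1662 and 3224 in place of 2930 and 2948) and the median of detected probes by -0.18 (2528 and 3225), and in liver normexp moved it by -0.14. Without spots in noisy blocks Asl had no value in iron-sufficient liver. Taking for each gene the closest pair of spots, an alternative chosen after seeing the data, put Glul in liver at 0.61, Arg1 in FAO cells at -0.66, and Asl and Glul in liver minus kidney at 0.67 and -0.97, all under 2-fold. Leaving out replicates was not possible because each group is 1 array. No paired analysis was possible because no comparison has more than 1 array per group and none gives a test.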
